A study of Eonycteris spelaea and Mus musculus with 51 samples.

Results

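The cytosolic form of the chaperone HSP90 is encoded by a pair of paralogous genes, an inducible copy and a constitutive copy, and their mRNA was followed in blood, muscle and lung of the bat Eonycteris spelaea, the cave nectar bat, and of the mouse (Mus musculus). The genes were chosen by name: Hsp90aa1 and Hsp90ab1 among the 40840 rows of the mouse count table, and the human identifiers ENSG00000080824 (HSP90AA1) and ENSG00000096384 (HSP90AB1) among the 30017 rows of the bat count table. These are 4 rows in all, 2 per species, and each passed the filter on low counts in every tissue. The rule uses only gene names.

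HSP90 holds client proteins such as steroid hormone receptors and many kinases in a form that can be activated, and it works through an ATP-driven cycle steered by co-chaperones. In mammals the beta gene, Hsp90ab1, is expressed in nearly all cells at rest, whereas the alpha gene, Hsp90aa1, is the copy that heat shock factor 1 (HSF1) switches on most readily. HSP90 also binds HSF1 itself, and this is a classical model of how the heat shock response is held back at rest.

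Heat animals were harvested at the end of 1 h of heat shock applied in vivo, recovery animals when a further 4 h had passed after such a heat shock, and control animals at baseline before any treatment. Total RNA from bulk tissue was sequenced in 51 libraries, 27 from bats and 24 from mice, in 18 groups of species, tissue and condition. Each group had 3 libraries, except that each mouse blood group had 2. The labels give no strain, age or sex, no group kept unheated for the same time, and no statement that libraries of a group came from separate animals. Handling and elapsed time therefore cannot be told apart from heat, and p-values measure only the spread between these libraries. In bulk tissue, fewer cells of a type and less RNA per cell cannot be told apart.

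Total counts ran from 9287883 to 33272414 per bat library and from 17092519 to 54493918 per mouse library. The paralogues were deeply covered, with at least 1096 reads of Hsp90aa1 and 5053 of Hsp90ab1 in every mouse library and at least 1630 and 1705 reads in every bat library. The mouse tissues carried their own markers: 7 lung markers summed to 15800 to 18200 CPM (read counts scaled to library size) in lung and to at most 4.99 CPM elsewhere, and 8 muscle markers to at least 214000 CPM in muscle and at most 3690 CPM elsewhere. The same check was not made in bats, whose identifiers could not be named with the tables used here.

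The mouse paralogues differ enough in sequence for short reads to tell them apart, which matters for any statement on their balance. The coding sequences of the GENCODE M21 transcripts Hsp90aa1-201 (chromosome 12, 2202 bases) and Hsp90ab1-201 (chromosome 17, 2175 bases) were identical at 1665 of 2170 aligned positions, or 76.7%. No window of 50 bases was shared among the 2153 windows of the Hsp90aa1 coding sequence. The start of each coding sequence is shown because the alpha copy carries an insertion there. Capitals mark bases that differ from the other paralogue or are missing from it. Coding positions are counted from 1 at the A of the start codon, and the stretches run from there to coding base 81 of Hsp90aa1 and to coding base 66 of Hsp90ab1.
Hsp90aa1: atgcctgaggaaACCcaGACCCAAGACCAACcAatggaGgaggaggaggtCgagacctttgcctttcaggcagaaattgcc
Hsp90ab1: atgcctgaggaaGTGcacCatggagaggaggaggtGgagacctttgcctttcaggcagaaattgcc

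The longest run that both coding sequences share, 33 bases, overlaps the end of these stretches, at coding bases 52 to 84 of Hsp90aa1 and 37 to 69 of Hsp90ab1. It is shown in capitals within 51 bases, because a read lying inside it would not separate the copies.
Hsp90aa1: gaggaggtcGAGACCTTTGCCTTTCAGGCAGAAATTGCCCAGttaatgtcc
Hsp90ab1: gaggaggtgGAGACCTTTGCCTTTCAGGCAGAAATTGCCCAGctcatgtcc

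The last 60 coding bases, down to the stop codon, end both sequences on the same length with 14 differing bases in capitals.
Hsp90aa1: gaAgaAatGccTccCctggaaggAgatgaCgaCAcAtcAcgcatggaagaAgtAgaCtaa
Hsp90ab1: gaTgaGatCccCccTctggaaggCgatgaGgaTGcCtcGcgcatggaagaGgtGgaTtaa

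Processed pseudogenes hold longer stretches of each paralogue. In the same annotation, 10 other genes shared at least 1 window of 50 bases with an HSP90 mRNA, among them the transcribed pseudogene Gm12346 with 1613 windows of Hsp90aa1. Of these 10, Gm13498 was a row of the mouse table and held 0 to 5 reads per library, 0.0107% of the Hsp90ab1 reads, and the other 9 were not analysed here. No source used here gives how reads that match several places were counted, so the absolute level of either copy is uncertain to that extent.

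In mouse lung both copies rose at the end of heat shock. Hsp90aa1 stood at 1367, 788 and 2637 CPM in heat libraries 1, 2 and 3, against 414, 263 and 324 CPM in control libraries 1, 2 and 3. Hsp90ab1 stood at 1639, 1575 and 2416 CPM in the same heat libraries, against 917, 650 and 715 CPM in control lungs. For both genes every heat library lay above every control library, and heat library 3 was the highest. Heat and control did not overlap for 26.9% of all genes. CPM are scaled by edgeR's trimmed mean of M-values (TMM) within a tissue.

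The log2 change of heat over control lungs was 2.26 for Hsp90aa1 (SE 0.44, 4.78-fold, adjusted p = 0.0353) and 1.30 for Hsp90ab1 (SE 0.18, 2.47-fold, adjusted p = 0.0071) in edgeR's quasi-likelihood fit, with p-values adjusted over 19438 genes after Benjamini and Hochberg. Genes with an adjusted p under 0.05 are referred to as called, which applied to 5.85% of all genes tested in this comparison. Hsp90ab1 was called in each of the 9 fits that left out 1 library. The call of Hsp90aa1 held without heat library 2 (log2 2.58) and without heat library 3 (1.69), and was lost without any other lung library, with estimates of 2.11 to 2.44 and edgeR adjusted p-values of 0.0545 to 0.129. It was also lost when low counts were not filtered (edgeR adjusted p = 0.0629) and when heat and control libraries were fitted without recovery (0.0912).

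At 4 h of recovery the lung levels were back near control. Recovery lungs held 351, 481 and 480 CPM of Hsp90aa1 and 724, 901 and 910 CPM of Hsp90ab1, below every heat library and overlapping the control libraries for both genes. Recovery and heat did not overlap for 33.4% of all genes. Against heat, both fell, Hsp90aa1 by 1.87 on the log2 scale (SE 0.44, adjusted p = 0.0391) and Hsp90ab1 by 1.15 (SE 0.18, adjusted p = 0.00555), in edgeR's test with Benjamini-Hochberg adjustment that called 11.3% of genes. The Hsp90aa1 call held without heat library 2 and was lost without any other lung library, with log2 changes of -1.97 to -1.31, and when low counts were not filtered (edgeR adjusted p = 0.0757) or heat and recovery libraries were fitted alone (0.0788). Against control, the log2 change was 0.39 for Hsp90aa1 (95% interval -0.61 to 1.39) and 0.15 for Hsp90ab1 (-0.25 to 0.55), and neither was called in a comparison that called 0.0309% of genes.

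Cell markers also differed between the lung groups. The 7 erythroid markers summed to 4200 to 7140 CPM in heat lung and 2910 to 7670 CPM in recovery lung, against 7060 to 8250 CPM in control lung, with 7 of 7 lower on average at heat and 5 of 7 at recovery. The 8 muscle markers summed to 854 to 1810 CPM in heat lung and 745 to 1620 CPM in recovery lung, against 624 to 3690 CPM in control lung. By group mean, 8 of 8 were lower at heat and 7 of 8 at recovery, with the highest control library at 3690 CPM. The median sums ran the other way, at 979 CPM in heat, 910 CPM in recovery and 730 CPM in control lung. The 6 leukocyte markers summed to 159 to 308 CPM in heat lung and 188 to 212 CPM in recovery lung, against 238 to 271 CPM in control lung, with 3 of 6 lower at heat and 6 of 6 at recovery. No marker was at 0 in any of these groups, and their part in the HSP90 values was not tested.

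**Figure D1:**
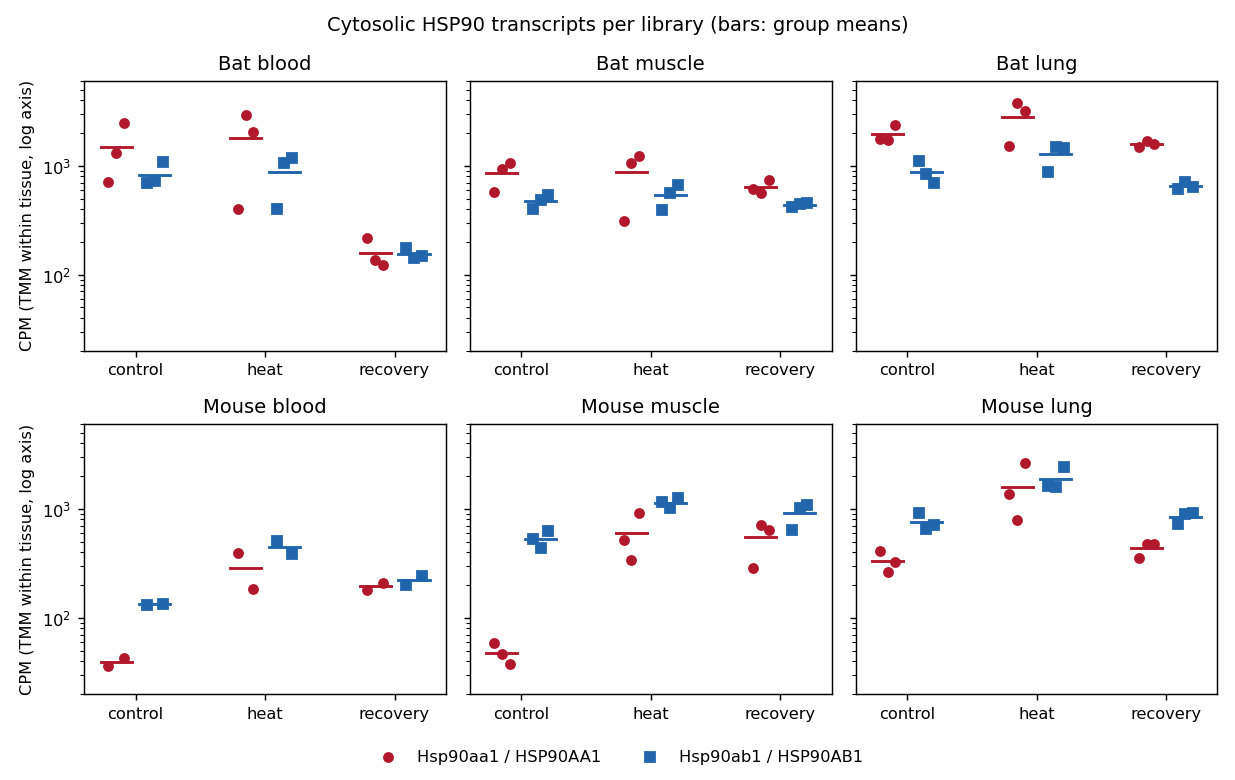
Levels of both paralogues in each library, in CPM on a log axis, for bat tissues in the upper row and mouse tissues in the lower row. Circles are Hsp90aa1 or HSP90AA1, squares are Hsp90ab1 or HSP90AB1, and bars are group means. The mouse panels show heat libraries above control libraries in each tissue, and the bat blood panel shows the 3 recovery libraries below the rest.

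In mouse muscle the inducible copy rose 12.5-fold after heat, and the constitutive copy was higher but not called. Hsp90aa1 stood at 524, 338 and 926 CPM in heat libraries 1, 2 and 3, against 59.3, 46.6 and 37.3 CPM in control libraries 1, 2 and 3. The groups did not overlap, which held for 37.7% of all genes, and the log2 change was 3.64 (SE 0.47, adjusted p = 0.027) by edgeR with Benjamini-Hochberg adjustment over 17746 genes, of which 0.428% were called. Without heat library 1, heat library 3, control library 1 or control library 2 the call was lost, with log2 changes of 3.18 to 3.83 and edgeR adjusted p-values of 0.0701 to 0.163.

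Hsp90ab1 in muscle stood at 1163, 1010 and 1255 CPM in heat libraries, against 533, 436 and 624 CPM in control libraries. These groups did not overlap either. The log2 change was 1.11 (SE 0.24, 95% interval 0.57 to 1.64, adjusted p = 0.0696 by edgeR), which missed the threshold. It passed when edgeR was fitted to heat and control alone (adjusted p = 0.0352) or to all mouse tissues together (0.00432), and in DESeq2 (0.000137).

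In recovery muscle the inducible copy was measured near its level at heat. Recovery libraries 1, 2 and 3 held 290, 717 and 647 CPM of Hsp90aa1 and 638, 1013 and 1077 CPM of Hsp90ab1, with library 1 the lowest for both genes and every library above every control library, where 9.52% of all genes did not overlap. The log2 change over control was 3.53 for Hsp90aa1 (SE 0.47, adjusted p = 0.0574) and 0.78 for Hsp90ab1 (SE 0.24, adjusted p = 0.705), neither called by edgeR with Benjamini-Hochberg adjustment, which called 0.0676% of genes. DESeq2 called Hsp90aa1 in this comparison (log2 3.53, adjusted p = 9.99e-15), and so did the edgeR fit over all mouse tissues (adjusted p = 0.00109). Against heat, the log2 change was -0.11 for Hsp90aa1 (95% interval -1.08 to 0.86) and -0.33 for Hsp90ab1 (-0.86 to 0.20), and 0.468% of genes were called.

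Summed mRNA of blood cell markers was lower in heat than in control muscle, and in recovery muscle it overlapped control. The 6 leukocyte markers summed to 2.23 to 12.3 CPM in heat libraries, against 31 to 149 CPM in control libraries, with 6 of 6 lower on average, and to 241, 5.88 and 7.14 CPM in recovery libraries 1, 2 and 3. The 7 erythroid markers summed to 316 to 360 CPM in heat and 174 to 485 CPM in recovery muscle, against 404 to 632 CPM in control muscle, and no marker of either list was at 0. Their part in the HSP90 values was not tested.

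The recovery response of Hsp90aa1 in muscle, minus that in lung, was 3.15 on the log2 scale (95% interval 1.86 to 4.44, edgeR adjusted p = 0.097 over 22592 genes, of which 0.0398% were called). The corresponding difference of heat responses was 1.41 (0.15 to 2.67, edgeR adjusted p = 0.245), where 0.0443% were called. For Hsp90ab1 the differences were 0.63 at recovery (-0.02 to 1.27) and -0.18 at heat (-0.82 to 0.47). A difference between muscle and lung was thus not called for either copy in this fit, which treats tissues as independent. The Hsp90aa1 difference at recovery was called when same-numbered libraries of a condition were treated as 1 animal, which the labels do not state. The response in blood minus that in lung was 0.57 for Hsp90aa1 at heat and 1.88 at recovery, and 0.41 and 0.55 for Hsp90ab1. None of these was called, in contrasts that called 0.0575% of genes at heat and 0.0221% at recovery.

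In mouse blood, with 2 libraries per group, both copies were higher after heat in every library, and no gene was called. Hsp90aa1 stood at 393 and 183 CPM in heat libraries 1 and 2, against 36.4 and 42.9 CPM in control libraries 1 and 3. Hsp90ab1 stood at 507 and 389 CPM in heat blood, against 131 and 135 CPM in control blood. The log2 changes of 2.86 (SE 0.38, adjusted p = 0.0927) and 1.75 (SE 0.21, adjusted p = 0.08) were not called by edgeR with Benjamini-Hochberg adjustment. That test called 0 of 15869 genes, or 0%, with 2355 genes at an unadjusted p under 0.05, and DESeq2 called 610, both copies among them. The edgeR fit over all mouse tissues called both as well (adjusted p = 0.0129 and 0.00252). Heat and control libraries did not overlap for 43.6% of all genes, where 2 libraries face 2.

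At recovery, blood libraries 1 and 2 held 182 and 209 CPM of Hsp90aa1 and 202 and 243 CPM of Hsp90ab1, all above the control libraries, a separation that 52% of all genes showed. The log2 changes over control were 2.30 (SE 0.38, 95% interval 1.38 to 3.23) and 0.74 (SE 0.20, 0.24 to 1.23), with an edgeR adjusted p of 0.544 for each. No gene was called against control (0%), with 1417 at an unadjusted p under 0.05 and 62 called by DESeq2. Against heat, the log2 change was -0.56 for Hsp90aa1 (-1.44 to 0.32) and -1.01 for Hsp90ab1 (-1.51 to -0.52, edgeR adjusted p = 0.0535), in a comparison that called 3.99% of genes. DESeq2 called that Hsp90ab1 difference, as did edgeR with no filter on low counts or over all mouse tissues. The 6 leukocyte markers summed to 572 and 589 CPM in recovery blood, against 932 and 1230 CPM in control blood and 919 and 1500 CPM in heat blood, with 6 of 6 lower at recovery than in control on average. The 7 erythroid markers summed to 658000 and 675000 CPM in recovery blood, against 550000 and 614000 CPM in control blood. On average 0 of 7 were lower at recovery than in control. In heat blood they summed to 517000 and 684000 CPM. The part of cell content in the HSP90 values was not tested.

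The balance of the copies was read as Hsp90aa1 reads per Hsp90ab1 read in each library, a ratio that no scaling between libraries can move. In mice it tilted towards the inducible copy at heat and stayed tilted at recovery. In muscle the ratio was 0.45, 0.335 and 0.737 in heat libraries 1, 2 and 3, against 0.111, 0.107 and 0.0598 in control libraries, and it was 0.454, 0.707 and 0.6 in recovery libraries. In blood it was 0.775 and 0.469 in heat libraries, against 0.277 and 0.318 in control libraries, and 0.901 and 0.863 in recovery libraries.

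In lung the ratio was 0.834, 0.5 and 1.09 in heat libraries 1, 2 and 3, against 0.452, 0.404 and 0.454 in control libraries, and 0.484, 0.533 and 0.528 in recovery libraries. In all 3 mouse tissues every heat library and every recovery library lay above every control library of its tissue. The shift was largest in muscle and smallest in lung at recovery, where the ratio exceeded control by 1.18-fold.

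Over the mouse tissues together, the log2 ratio was higher by 1.42 in heat than in control libraries and by 1.50 in recovery than in control libraries, a 2.68-fold and a 2.83-fold tilt. An exact two-sided permutation test that exchanged labels within each tissue gave p = 0.000833 for each, the smallest that its 2400 arrangements allow, and an adjusted p of 0.01 over 24 balance tests. Leaving out any 1 library kept both shifts between 1.30 and 1.56 with exact adjusted p-values of at most 0.02. Within 1 tissue, an exact permutation of 3 libraries against 3 cannot go below p = 0.1 and one of 2 against 2 not below 0.333, and each mouse tissue stood at that limit against control. The labels do not say whether libraries of different tissues with the same number came from 1 animal, and if they did, the pooled p would be too small, with 0.1 as the smallest possible.

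In counted reads per base of transcript, the constitutive copy was the higher in every mouse library. Divided by the lengths of Hsp90aa1-201 (2852 bases) and Hsp90ab1-201 (2520 bases), the ratio of reads per base was 0.0529 to 0.0982 in control muscle, 0.245 and 0.281 in control blood and 0.357 to 0.401 in control lung. It reached 0.964 in lung heat library 3, its highest value among the 24 mouse libraries. As a share of the reads of both genes, Hsp90aa1 took 32.9% ± 8.82 in heat muscle and 8.44% ± 2.42 in control muscle (SD, n = 3 each).

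**Figure D2:**
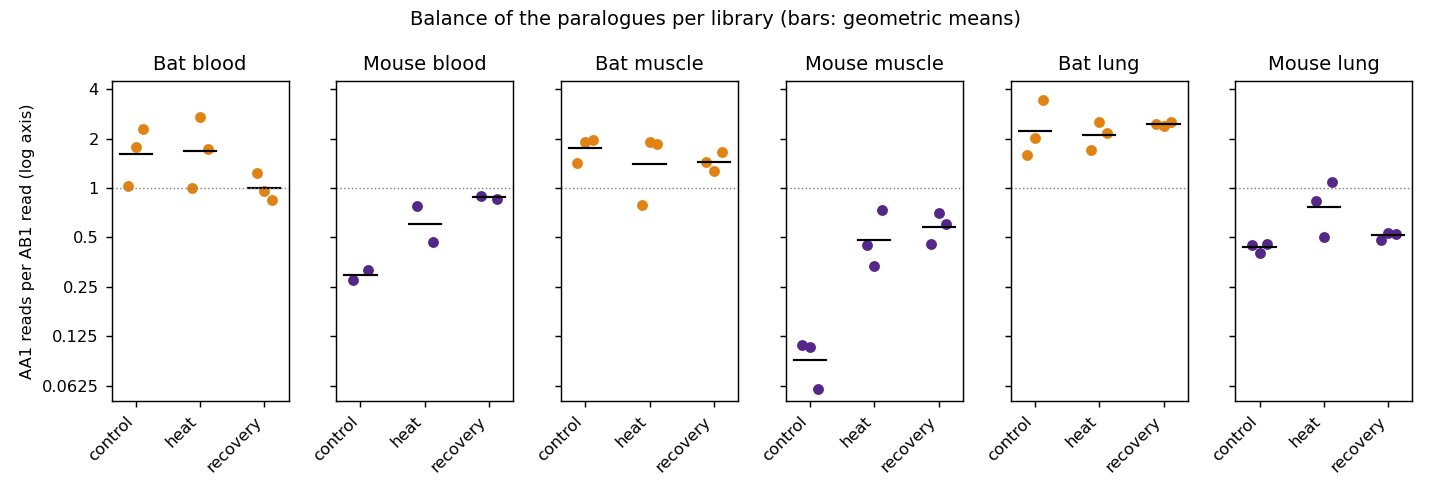
Reads of the inducible copy per read of the constitutive copy in each library, on a log axis, with bars at geometric means and a dotted line at equal reads. Bat points lie mostly above the line, and all mouse points but 1 below it, with the mouse points of heat and recovery above those of control in each tissue.

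In bats most reads of the pair were counted for the inducible copy, and no shift of the balance was called. Hsp90aa1 reads outnumbered Hsp90ab1 reads in 24 of 27 bat libraries, with ratios of 0.788 to 3.43, against 1 of 24 mouse libraries, with ratios of 0.0598 to 1.09. Bat transcript lengths were not used here, so these are ratios of reads and do not rank the bat transcripts per base. Whether reads tell the copies apart was checked on mouse sequences only, so the bat split is uncertain to that extent. The bat ratio was 1.71, 2.55 and 2.18 in lung heat libraries, against 1.58, 2.03 and 3.43 in lung control libraries. It was 0.788, 1.9 and 1.87 in muscle heat libraries, against 1.42, 1.91 and 1.96 in muscle control libraries, and 1.00, 2.71 and 1.74 in blood heat libraries, against 1.04, 1.79 and 2.29 in blood control libraries.

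These groups overlapped in every bat tissue. Over the bat tissues the log2 ratio differed by -0.11 between heat and control libraries (exact stratified permutation p = 0.662 of 8000 arrangements, two-sided) and by -0.28 between recovery and control libraries (exact p = 0.168, adjusted p = 0.533). The lowest bat ratios were in muscle heat library 1 and in blood recovery libraries 2 and 3. Those blood libraries stood at 0.956 and 0.841, beside 1.24 in blood recovery library 1.

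In bat lung neither copy was called after heat. Hsp90aa1 stood at 1507, 3783 and 3153 CPM in heat libraries 1, 2 and 3, against 1753, 1717 and 2373 CPM in control libraries, so that the groups overlapped through heat library 1. Hsp90ab1 stood at 882, 1484 and 1444 CPM in heat libraries, against 1107, 847 and 691 CPM in control libraries. The log2 changes were 0.53 for Hsp90aa1 (95% interval -0.13 to 1.19, edgeR adjusted p = 0.613) and 0.53 for Hsp90ab1 (0.01 to 1.04, edgeR adjusted p = 0.575). Of 19149 genes 0 were called there (0%), with 1662 at an unadjusted p under 0.05 and 19 called by DESeq2.

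In bat muscle Hsp90aa1 stood at 310, 1064 and 1235 CPM in heat libraries 1, 2 and 3, against 570, 935 and 1067 CPM in control libraries, and Hsp90ab1 at 393, 561 and 661 CPM against 401, 489 and 544 CPM. Heat and control overlapped for both. The log2 changes were 0.02 (95% interval -0.97 to 1.01) and 0.17 (-0.24 to 0.59), and edgeR called neither, while 0.0376% of 15950 genes were called.

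In bat blood the spread was the widest of the bat tissues. Hsp90aa1 stood at 404, 2901 and 2049 CPM in heat libraries, against 712, 1298 and 2470 CPM in control libraries, and Hsp90ab1 at 403, 1069 and 1177 CPM against 688, 726 and 1078 CPM. The log2 changes were 0.26 (95% interval -1.24 to 1.75) and 0.09 (-0.88 to 1.06). Of 16038 genes 0 were called by edgeR (0%) and 0 by DESeq2, with 351 at an unadjusted p under 0.05.

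Heat library 1 was the lowest of the 3 bat heat libraries for both genes in all 3 tissues. Without it, the log2 change of Hsp90aa1 was 0.84 in lung, 0.41 in muscle and 0.73 in blood, and that of Hsp90ab1 was 0.73, 0.34 and 0.43 in those tissues. None of these was called by edgeR with Benjamini-Hochberg adjustment (adjusted p = 0.379 to 1). Heat library 1 was left out here because it was the lowest, which by itself raises the estimates. Fits without any 1 library of a tissue gave Hsp90aa1 changes of 0.28 to 0.84 in lung, -0.33 to 0.41 in muscle and -0.29 to 0.82 in blood. For Hsp90ab1 they gave 0.38 to 0.73, -0.02 to 0.34 and -0.17 to 0.43. The intervals above, with every library kept, include no change of Hsp90aa1 in each bat tissue, and they reach up to log2 changes of 1.19 in lung, 1.01 in muscle and 1.75 in blood.

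At recovery the bat blood libraries held the least HSP90 mRNA of any bat group. Hsp90aa1 stood at 218, 136 and 123 CPM in recovery libraries 1, 2 and 3, against the 712 to 2470 CPM of control blood, and Hsp90ab1 at 176, 143 and 147 CPM, against 688 to 1078 CPM. Every recovery library lay below every control and heat library, and 10.7% of all genes did not overlap between recovery and control and 16.2% between recovery and heat. The log2 difference from control was -3.23 for Hsp90aa1 (SE 0.74, 95% interval -4.86 to -1.60, adjusted p = 0.502) and -2.42 for Hsp90ab1 (SE 0.46, -3.44 to -1.40, adjusted p = 0.366). Neither was called by edgeR, which called 0 genes there (0%), with 849 at an unadjusted p under 0.05.

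Both were called by DESeq2 among its 92 calls (log2 -3.18, adjusted p = 0.00106, and -2.38, adjusted p = 0.000147) and by the edgeR fit over all bat tissues (adjusted p = 0.0113 and 0.000801). Against heat blood the log2 differences were -3.49 and -2.51, with edgeR adjusted p-values of 0.361 and 0.271, and again DESeq2 and the fit over all bat tissues called both. Blood cell markers could not be named in the bat table, so the part of cell content in this difference was not tested.

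In bat lung and muscle no difference at recovery was called by edgeR. In lung, recovery libraries held 1489, 1688 and 1591 CPM of Hsp90aa1 and 608, 708 and 632 CPM of Hsp90ab1, with log2 differences from control of -0.29 (95% interval -0.95 to 0.36) and -0.44 (-0.95 to 0.07), where 0.047% of genes were called. Every recovery lung lay below every control lung for Hsp90aa1, and the groups overlapped for Hsp90ab1, beside 20.6% of all genes without overlap. In muscle, recovery libraries held 610, 567 and 747 CPM and 422, 445 and 451 CPM, with log2 differences from control of -0.42 (-1.41 to 0.57) and -0.12 (-0.54 to 0.29), where 2.67% of genes were called. Against heat, the log2 differences were -0.82 and -0.97 in lung and -0.44 and -0.29 in muscle, in comparisons that called 0.125% and 0.00627% of genes. DESeq2 called Hsp90ab1 in lung against heat (adjusted p = 0.00527), where its recovery libraries all lay below the heat libraries, as 25.5% of all genes did not overlap. The recovery response in bat blood minus that in bat lung was -2.97 for Hsp90aa1 (edgeR adjusted p = 0.188) and -1.998 for Hsp90ab1 (edgeR adjusted p = 0.161), where 0.0147% of genes were called. At heat the blood and lung responses differed by -0.31 and -0.45 (0% called). Muscle minus lung gave -0.59 and -0.41 at heat (0%) and -0.21 and 0.26 at recovery (0.559%), none of them called.

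The summed level of both copies was tested in the same way, within each species. Over the mouse tissues the log2 sum of CPM was higher by 1.75 in heat and by 0.93 in recovery than in control libraries, each with an exact stratified permutation adjusted p of 0.016 over 24 tests. Over the bat tissues it differed by 0.15 between heat and control libraries (exact adjusted p = 0.742) and was lower by 1.14 in recovery than in control libraries (exact p = 0.002, adjusted p = 0.016). The bat difference came mostly from blood, where the sum was 394, 279 and 270 CPM in recovery libraries, against 1400, 2024 and 3548 CPM in control libraries. Recovery was lower than heat by 0.81 in mice and by 1.29 in bats (exact adjusted p = 0.028 each). That call was lost without any 1 of the 3 bat blood recovery libraries (-1.35 to -1.26), and in mice without either blood recovery library or muscle recovery library 1 (-0.85 to -0.71). No difference between species was tested on the sum or the balance.

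The condition on animals shared between tissues holds for these p-values too. Same-numbered bat libraries deviated together, with every correlation over 0.1, between recovery muscle and lung (0.171 to 0.207), heat blood and lung (0.133 to 0.179) and heat muscle and lung (0.118 to 0.171). No other bat and no mouse pair of tissues had every correlation over 0.1 in 1 condition. In mice, heat muscle and lung gave 0.0248, 0.258 and 0.249 for libraries 1, 2 and 3, and pairs with blood numbered only 2 per condition. The pooled p-values of both species treat tissues as independent and may therefore be too small.

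**Figure D3:**
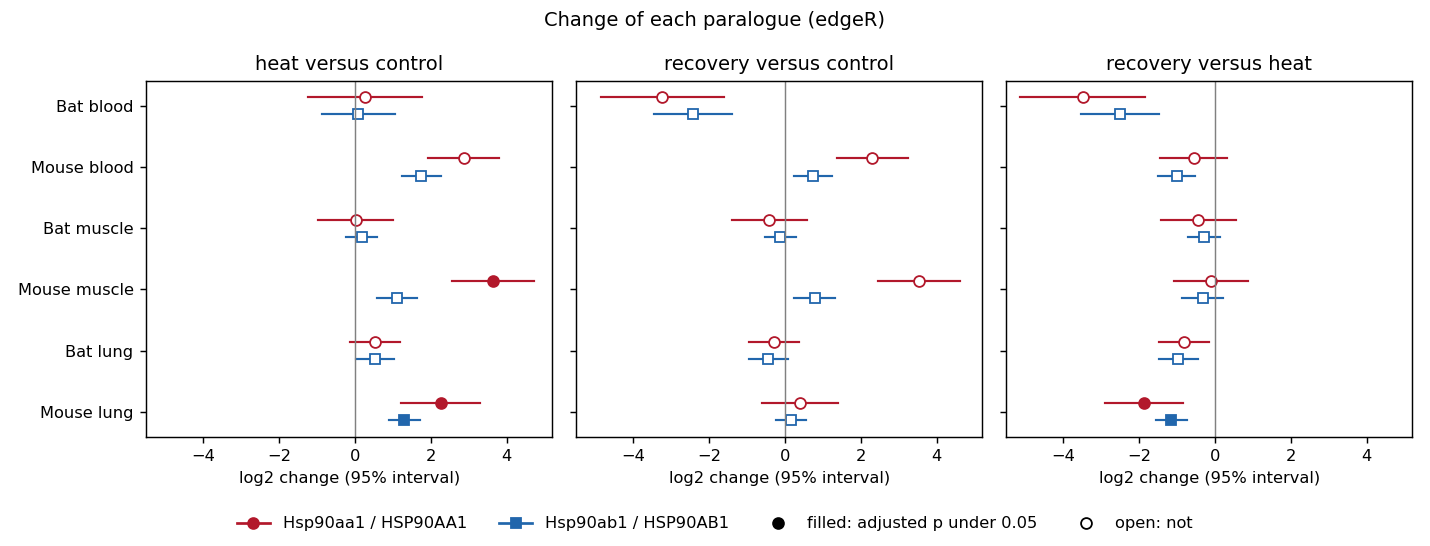
Log2 change of each paralogue by species and tissue, with 95% intervals from edgeR, for heat versus control, recovery versus control and recovery versus heat. Filled symbols passed an adjusted p of 0.05, which in these fits were mouse muscle Hsp90aa1 and both mouse lung genes after heat, and both mouse lung genes for recovery against heat.

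The difference between species was tested gene by gene in 1 edgeR fit per tissue, on the rows that both tables could be matched on by name, 77 in lung, 52 in muscle and 61 in blood. The paralogues made up 63.4% to 76.2% of the counts of those small tables, so the fit was repeated with the library sizes and TMM factors of each species' whole table, an alternative chosen after seeing the data. Changes are given as the bat response minus the mouse response.

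In muscle the inducible copy responded less in bats at both times. For heat, the difference was -3.07 for Hsp90aa1 (SE 0.66, adjusted p = 0.0058) within the matched table and -3.62 (adjusted p = 0.00358) with whole-table sizes, in edgeR fits that called 25% and 9.62% of the matched genes. For recovery it was -3.64 (SE 0.66, adjusted p = 0.00246) and -3.95 (adjusted p = 0.0015). Hsp90aa1 was itself the only matched gene called there either way, 1.92% of the 52. For Hsp90ab1 in muscle the differences were -0.35 at heat (95% interval -1.14 to 0.43) and -0.57 at recovery (-1.35 to 0.21), neither called by edgeR. Here the scaling moved the value. With whole-table sizes the differences were -0.93 and -0.90, not called, and with RLE factors the heat difference was -1.07 and called (edgeR adjusted p = 0.0404). Leaving out 1 library at a time within the matched table put the heat difference between -1.48 and -0.06 and called it without any of 6 libraries.

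In blood both copies differed at recovery, by -5.45 for Hsp90aa1 (SE 1.07, adjusted p = 0.011) and -3.09 for Hsp90ab1 (SE 0.66, adjusted p = 0.011), and these were the calls behind the 3.28% of matched genes called by edgeR. With whole-table sizes the differences were -5.53 and -3.16. Both calls were lost without mouse blood control library 1 or 3, with differences of -5.32 and -5.59 for Hsp90aa1 and -3.05 and -3.12 for Hsp90ab1 and edgeR adjusted p-values of 0.0945 to 0.108. At heat, the blood differences were -3.03 (95% interval -5.23 to -0.84) and -2.13 (-3.53 to -0.74), not called by edgeR, which called 0 of 61 genes (0%).

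In lung the Hsp90aa1 difference at heat was -1.62 (SE 0.55, adjusted p = 0.0714) within the matched table and -1.73 (adjusted p = 0.0469) with whole-table sizes, on either side of the threshold, while edgeR called 9.09% and 10.4% of the matched genes. The lung difference for Hsp90ab1 at heat was -0.66 (95% interval -1.54 to 0.21). At recovery the lung differences were -0.71 for Hsp90aa1 (-1.87 to 0.44) and -0.63 for Hsp90ab1 (-1.51 to 0.24), and 0 of 77 genes were called (0%).

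At baseline, mouse tissues differed in both copies, in opposite directions for muscle. Scaled over all 24 mouse libraries, control libraries of muscle were lower than those of lung in Hsp90aa1 by a log2 difference of -1.63 (SE 0.43, adjusted p = 0.00365) and higher in Hsp90ab1 by 0.66 (SE 0.22, adjusted p = 0.0145), in an edgeR contrast that called 56% of 22592 genes. Control blood was lower than control lung, with a log2 difference of -1.22 in Hsp90aa1 (adjusted p = 0.0399) and -0.66 in Hsp90ab1 (adjusted p = 0.0269) by edgeR and 60.7% of genes called. Control blood was lower than control muscle in Hsp90ab1 (log2 difference -1.32, edgeR adjusted p = 0.000157), and these tissues did not differ beyond their spread in Hsp90aa1 (0.41, 95% interval -0.58 to 1.40), with 67% of genes called.

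The order at baseline was therefore lung first for Hsp90aa1, with blood and muscle not separated, and muscle, lung and blood for Hsp90ab1. This order rests on the scaling between mouse tissues that differed in 56% to 67% of genes. The muscle and lung call for Hsp90ab1 was lost without lung control library 2 or 3 or muscle control library 3, at log2 differences of 0.43 to 0.60. The blood and lung call was lost without blood control library 1 or lung control library 1 for both genes, and for Hsp90aa1 also without blood control library 3 or lung control library 3, at -1.47 to -1.09 for Hsp90aa1 and -0.74 to -0.56 for Hsp90ab1. In bats no baseline difference between tissues was called for either gene by edgeR, with log2 differences of -0.04 to 0.57, while 55.9% of genes were called between muscle and lung, 57.6% between blood and lung and 64.5% between blood and muscle.

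Among HSP90 partners in mice, a group of co-chaperones rose in lung after heat. This list of 35 genes was drawn from general knowledge of the HSP90 cycle. Like the other lists below, it was chosen with earlier results of these data known, so the counts of calls only describe the lists. After heat 12 of 35 rose in lung and none fell, with a median log2 change of 0.15 over the list and -0.01 over all genes, where 3.14% of genes were called higher. Stip1, which bridges HSP70 and HSP90, averaged 227 CPM in heat and 48.7 CPM in control lungs (log2 2.22, edgeR adjusted p = 0.0136). Ahsa1, which stimulates the HSP90 ATPase, averaged 126 and 47 CPM in the same groups (log2 1.43, edgeR adjusted p = 0.00657), and its relative Ahsa2 averaged 204 and 32.9 CPM (log2 2.64).

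Fkbp4 and Fkbp5, immunophilins of steroid receptor complexes, rose by 1.23 and 2.06 on the log2 scale in heat lungs, and Ptges3, the p23 co-chaperone, by 0.75. At recovery 13 of these 35 fell against heat in lung, where 5.84% of genes were called lower, and none was called against control. In muscle 3 rose after heat, namely Ahsa2 (log2 2.49), Stip1 (1.87) and Chordc1 (1.55), a zinc-binding co-chaperone, against 0.293% of genes called higher, and in blood 0 of 33 tested were called. DESeq2 called 14 in muscle, among 2607 calls of 17746 genes, and 13 in blood, among 610 calls of 15869 genes. Against heat, 11 fell in recovery blood, where 2.7% of genes were called lower.

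Heat shock genes known as HSF1 targets were the list with the highest medians at heat. Of 14 listed, 8 rose in heat lung (median log2 2.59) and 5 in heat muscle (median 2.26), against 3.14% and 0.293% of all genes called higher there. In heat blood 0 of 13 tested were called (median 2.24; 0% of all genes), and DESeq2 called 12 among its 610 calls of 15869 genes. In muscle edgeR called 3 as higher at recovery against control, where 0.0676% of all genes were called, namely the HSP70 genes Hspa1a (log2 7.83) and Hspa1b (8.11), whose split is uncertain because they are near-identical, and the small heat shock protein gene Hspb1 (3.13). All 14 lay above control without overlap in recovery muscle (median log2 1.99), as 9.52% of all genes did not overlap there. DESeq2 called 11 of the 14 among its 114 calls of 17746 genes. In recovery lung edgeR called none of the 14 against control, with a median of -0.10, and DESeq2 called Hspa8, which encodes the constitutive HSC70, as lower (log2 -1.12, adjusted p = 0.0147). The list also holds Hspd1 and Hspe1, which encode the mitochondrial chaperonin.

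The HSP90 relatives outside the cytosol were not called by edgeR after heat. Hsp90b1, which encodes the endoplasmic reticulum form GRP94, averaged 589 CPM in heat and 465 CPM in control lungs (log2 0.34, edgeR adjusted p = 0.078), a difference that DESeq2 called (adjusted p = 0.0228). Trap1, which encodes the mitochondrial form, averaged 50.9 and 46.9 CPM in the same groups (log2 0.12). Neither was called by edgeR against control in any mouse tissue, and Hsp90b1 fell by 0.43 on the log2 scale in recovery lung against heat lung (edgeR adjusted p = 0.0264).

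The 4 heat shock factor genes listed, Hsf1, Hsf2, Hsf4 and the HSF1-binding Hsbp1, were not called by edgeR in any of the 9 mouse comparisons. The nearest was Hsf2 in muscle, which averaged 47.4 CPM at recovery and 28.56 CPM at heat (log2 0.73, edgeR adjusted p = 0.0577). Control muscle averaged 24.8 CPM of Hsf2, and recovery differed from it by a log2 change of 0.93 (edgeR adjusted p = 0.0861). For Hsf2 in recovery muscle, DESeq2 called the differences from control (adjusted p = 1.77e-05) and from heat (0.00246), as did edgeR with no filter on low counts (0.0475 and 0.0466). Of 13 genes for steroid receptor and kinase clients, Egfr rose by 0.51 and Ahr, the aryl hydrocarbon receptor, fell by 0.66 on the log2 scale in heat lung, where 5.85% of all genes were called. By edgeR none was called in heat muscle or heat blood, while DESeq2 called Ahr in heat muscle (adjusted p = 0.0433) and Nr3c1, the glucocorticoid receptor, in heat blood (0.00265). At recovery against heat, Ahr (log2 0.86), the mineralocorticoid receptor gene Nr3c2 (0.42) and the receptor kinase gene Erbb2 (0.28) rose and Egfr fell by 0.80 in lung, where 11.3% of genes were called by edgeR. Nr3c1 fell by 1.03 in recovery blood against heat, where 3.99% were called.

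**Figure D4:**
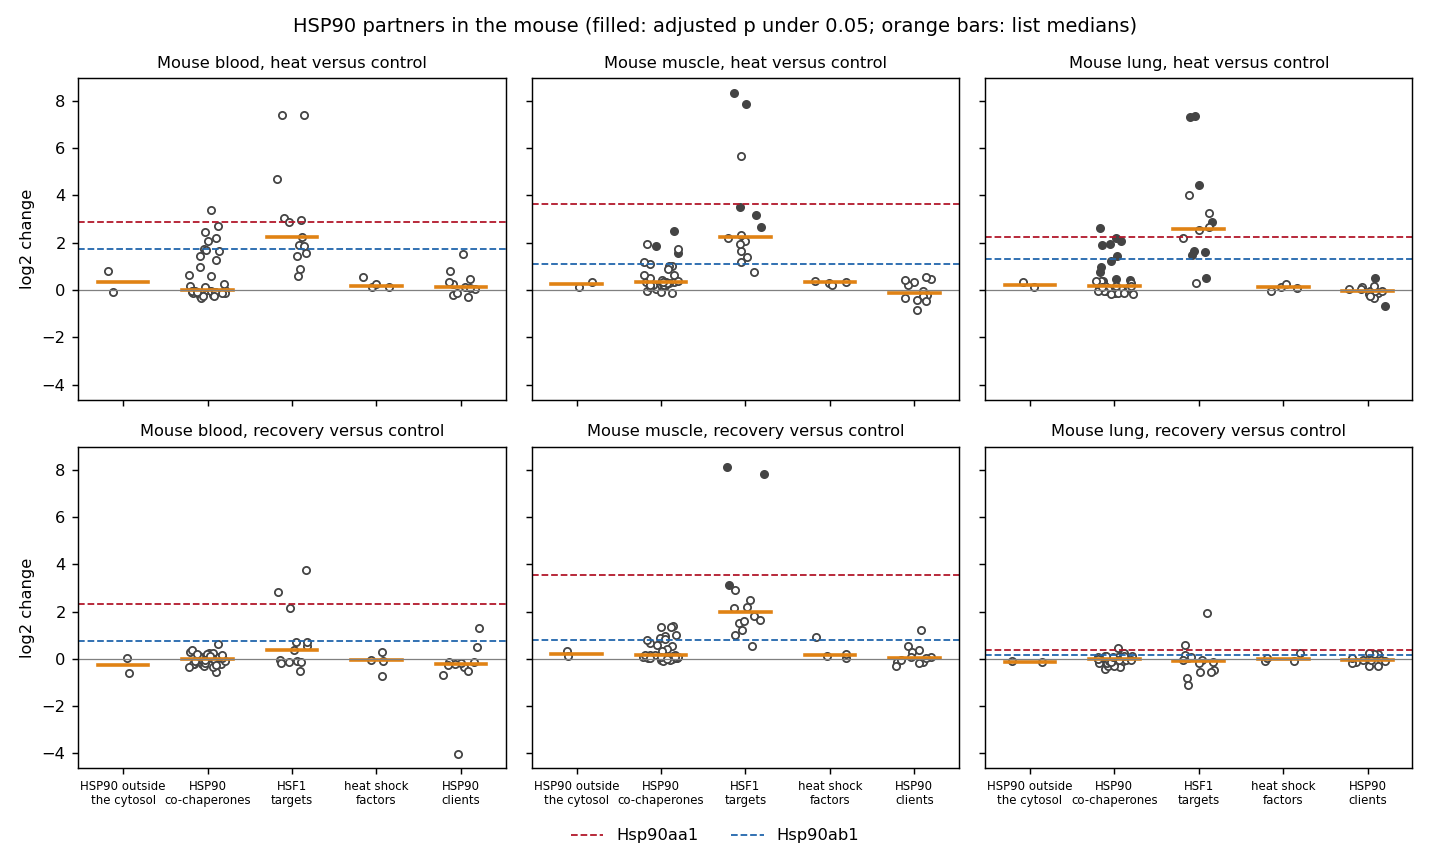
Log2 changes of the listed HSP90 partners in mouse tissues, for heat versus control in the upper row and recovery versus control in the lower row, with filled points at an adjusted p under 0.05, orange bars at list medians and dashed lines at the changes of Hsp90aa1 and Hsp90ab1. Filled co-chaperones appear in heat lung and heat muscle, and at recovery the filled points are 3 heat shock genes in muscle.

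The genes whose levels ran most like each copy across libraries were found by Pearson correlation of log2 CPM after each tissue's mean was subtracted. Over the 24 mouse libraries and 7870 genes, those nearest to Hsp90aa1 were Hspa1a (r = 0.95), Hspa4l (0.943), Hspa1b (0.936), Dnajb4 (0.922) and Bag3 (0.901), all of them chaperones or co-chaperones of the HSP70 system. Those nearest to Hsp90ab1 were Ahsa1 (0.975), Hsph1 (0.953), Cacybp (0.947), Chchd2 (0.945) and Hikeshi (0.945), the carrier that brings HSP70 into the nucleus. The other paralogue came 9th for Hsp90aa1 and 44th for Hsp90ab1, at r = 0.873.

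Over the 27 bat libraries and 8161 genes the paralogues were closer to each other. HSP90AB1 ranked 1st for HSP90AA1 and HSP90AA1 ranked 2nd for HSP90AB1, at r = 0.939, where ENSG00000100591 ranked 1st at 0.96. These correlations describe libraries that share a condition and a depth, and no test was made of them.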

How the data were processed

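Bulk RNA-seq of blood, muscle and lung was deposited as raw read counts per gene, 1 table per species. Per the labels' protocols, RNA came from TRIzol extraction and the library kit kept strand. Per the submitters' processing notes, STAR 2.7 and featureCounts were used and GRCm39 was named for every sample, bats included. How bat reads came to carry human gene identifiers, and the strand and multi-mapping settings of counting, are given in no source used here. The 2 bat rows are named as HSP90AA1 and HSP90AB1 by the rule that chose them.

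Counts were analysed with edgeR 4.0.16 in R 4.3.3, using filterByExpr (minimum count 10, minimum total 15), TMM factors, robust quasi-likelihood fits and Benjamini-Hochberg adjustment over all genes of a tissue, with 1 fit per species and tissue over the 3 conditions. DESeq2 1.42.0 was an alternative. Baseline levels and differences between tissues came from 1 fit per species, and differences between species from 1 fit per tissue on rows matched by symbol, of which 646 were found before filtering, members included. Bat rows with mouse identifiers, 758 of 792, were named through the GENCODE M21 table. Balance and summed level were tested per library by exact two-sided permutation. Sequences came from GENCODE M21 transcripts (GRCm38), and no coordinates were used because the builds differ. The tests were checked on simulated data.

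Every library, the 4 member rows and 5 gene lists were given in the text, the lists in mice only. Per comparison, each list could have its 4 best-ranked genes by p named, along with listed genes called, and the 5 genes whose log2 CPM (prior count 2, mean of at least 5 CPM in each tissue) correlated best with each member. Further co-chaperones were named after their values were seen. Members and lists were chosen with earlier results of these data known. Replicate numbers were not used as a block. Same-numbered libraries deviated together, with every correlation of at least 3 pairs over 0.1, for bat blood recovery and control (0.242 to 0.388) and bat muscle heat and control (0.168 to 0.202), and for no other pair of conditions within a tissue.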

Additional observations from a re-analysis of the deposited data

Results flagged for a closer look

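The effect of a condition differed between bats and mice in 4 tested results, each given as the bat minus the mouse log2 change over control. For Hsp90aa1 these were -3.07 in heat muscle, -3.64 in recovery muscle and -5.45 in recovery blood, and for Hsp90ab1 -3.09 in recovery blood. The edgeR tests are given with the results above.

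In 4 further results every library of one group moved one way from its control mean and every library of the other group moved the opposite way, and these differences were not tested. The change of the log2 read ratio at recovery was lower in bats than in mice by -2.96 in muscle and by -2.27 in blood. Among bat tissues it differed by -0.41 between muscle and lung and by -0.83 between blood and lung, at recovery against control. The recovery and control ratios overlapped in each bat tissue. In bat lung, recovery ratios of 2.384 to 2.515 lay within the control range of 1.584 to 3.432.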

How the results depend on the processing

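Directions of the called differences held under each setting run, and the calls named here did not. Values are log2 changes or differences, with edgeR adjusted p unless DESeq2 is named, and the cause of each change was not tested. In 1 fit over all tissues of a species, bat blood at recovery against control was called (Hsp90aa1 -3.19, Hsp90ab1 -2.38), as were mouse blood at heat (2.83 and 1.73), Hsp90aa1 in mouse muscle at recovery (3.55) and Hsp90ab1 in mouse muscle at heat (1.14, adjusted p = 0.00432), and Hsp90aa1 in heat bat muscle turned to -0.0042. DESeq2 also called bat blood at recovery (-3.18 and -2.38), mouse blood at heat (2.88 and 1.77), Hsp90aa1 at recovery in mouse blood (2.30) and mouse muscle (3.53), Hsp90ab1 in heat mouse muscle (1.14), and the bat minus mouse differences of Hsp90aa1 in heat lung (-1.65) and Hsp90ab1 in heat muscle (-1.07). RLE factors called the heat muscle difference of Hsp90ab1 (-1.07), and whole-table sizes, chosen after seeing the data, that of Hsp90aa1 in heat lung (-1.73). Without the filter on low counts Hsp90aa1 in heat mouse lung was not called (2.26) and Hsp90ab1 in heat mouse blood was (1.74, adjusted p = 0.000114). With only the 2 conditions compared, Hsp90aa1 in heat mouse lung was not called (2.25), whereas Hsp90aa1 in mouse blood at recovery (2.30, adjusted p = 0.0273) and Hsp90ab1 in heat mouse muscle (1.12) were.

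With the replicate number as a replicate block, Hsp90aa1 was not called in heat mouse lung (2.15, adjusted p = 0.0534), in heat mouse muscle (3.55, adjusted p = 0.0932) or in mouse lung at recovery against heat (-1.74, adjusted p = 0.0612), where the libraries share a number and did not deviate together. In bat muscle, where they did, the Hsp90aa1 heat change turned to -0.087, not called. In the fit over all tissues of a species, the block was instead condition and replicate number together. That block treats same-numbered libraries of different tissues in a condition as 1 animal, which the labels do not state. Under it, the muscle minus lung difference of the mouse Hsp90aa1 response at recovery was called (3.07, edgeR adjusted p = 0.00214). Neither block changed any other call of the members. No paired analysis was possible for the balance in mouse blood against control because those groups share 1 number. The planned sum with further rows named after Hsp90aa1 or Hsp90ab1 could not be run, since none exists.

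Leaving out 1 library at a time, where a direction or call changed, gave the following lowest and highest values. Heat against control in bats gave -0.29 to 0.82 in blood and -0.33 to 0.41 in muscle for Hsp90aa1, and -0.17 to 0.43 and -0.0205 to 0.34 for Hsp90ab1. In mice, Hsp90aa1 gave 1.69 to 2.58 in heat lung, 3.18 to 3.93 in heat muscle, 2.20 to 3.31 in heat blood, 3.29 to 3.84 in recovery muscle and 2.18 to 2.43 in recovery blood, and Hsp90ab1 0.98 to 1.24 in heat muscle and 1.55 to 1.93 in heat blood. At recovery against heat, Hsp90aa1 gave -1.01 to 0.10 in mouse blood, -2.19 to -1.31 in mouse lung and -0.39 to 0.35 in mouse muscle, and Hsp90ab1 -1.19 to -0.81 in mouse blood.

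At baseline, blood minus lung gave -0.34 to 0.59 in bats and -1.48 to -1.09 in mice for Hsp90aa1 and -0.81 to -0.56 in mice for Hsp90ab1. Blood minus muscle in bats gave -0.63 to 0.29 for Hsp90aa1 and -0.29 to 0.13 for Hsp90ab1, and muscle minus lung in mice 0.43 to 0.78 for Hsp90ab1. The bat minus mouse differences, over both kinds of library size, gave -5.87 to -4.93 in recovery blood and -2.24 to -0.97 in heat lung for Hsp90aa1, and -3.29 to -2.89 in recovery blood, -1.48 to -0.0595 in heat muscle and -1.49 to -0.27 in recovery muscle for Hsp90ab1. The bat log2 read ratio gave -0.22 to 0.0301 over all tissues, -0.29 to 0.42 in blood, -0.32 to 0.24 in lung and -0.53 to 0.11 in muscle for heat against control, -0.11 to 0.45 in lung for recovery against control and -0.38 to 0.26 in muscle for recovery against heat, and the mouse ratio -0.0433 to 0.20 over all tissues for recovery against heat. The log2 sum gave -0.42 to 0.73 in bat blood and -0.29 to 0.43 in bat muscle for heat against control, and for recovery against heat -0.70 to 0.0111 in bat muscle, -0.45 to 0.0182 in mouse muscle, -1.53 to -1.15 over all bat tissues and -0.92 to -0.70 over all mouse tissues. Where a group keeps 1 library, that library is assumed to vary like the others. Each member had at least 1096 reads in every library, and the effect of depth on these tests was not tested.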
